A study of Mus musculus with 8 samples.

Results

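The genes described here are the immunoglobulin constant genes of the mouse, compared by isotype in medial knee cartilage. They are 10 of the 50462 gene identifiers in the deposited table: the heavy chain genes Ighm, Ighd, Ighg1, Ighg2b, Ighg2c, Ighg3 and Igha, and the light chain genes Igkc, Iglc1 and Iglc2. Each was found by matching the table's Ensembl identifier to a symbol, and all 10 had counts in all 8 libraries. The set was chosen by gene name with the counts of both groups already seen, so it was in effect selected on the same difference between groups that is given below. Their values are therefore a description. No p-value is given for them, and whether a member met the rule for a call is stated as part of that description and not as evidence.

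The libraries are RNA-seq of the cartilage caps on the medial side of the knee, 1 library per mouse, from male wild-type C57BL/6J mice. Naive mice (n = 4) had no operation and were taken at day 0, aged 11 weeks. DMM mice (n = 4) were operated on at 11 weeks of age and taken at day 42, aged 17 weeks. In DMM, the destabilisation of the medial meniscus, the ligament that ties the medial meniscus of the left knee to the tibia is transected, a surgical model of osteoarthritis. Operated mice also received isoflurane, buprenorphine and wound clips, which the naive mice did not. Sham-operated mice were not analysed here. Surgery, the drugs given with it and the difference in age therefore cannot be told apart. Spread between libraries is spread between these mice.

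An antibody pairs identical heavy chains with identical light chains, and the constant gene used for the heavy chain sets its class. A B cell first makes IgM, and by alternative splicing also IgD, from the same rearranged locus. Class switch recombination later joins the same variable region to a downstream constant gene, giving IgG, IgE or IgA. Plasma cells, the end stage of the lineage, hold very large amounts of constant region mRNA. Fewer cells of a type and less RNA per cell cannot be told apart in bulk samples.

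The heavy chain genes lie in a row on the minus strand of chromosome 12 (GRCm38, GENCODE vM21 annotation). Those used after switching lie downstream of Ighm and Ighd. Ighe (chr12:113269260-113273248), outside the set, lies between Ighg2c and Igha. Ighm (chr12:113418558-113422730) is followed by Ighd (chr12:113406604-113416324), Ighg3 (chr12:113356224-113361232), Ighg1 (chr12:113325240-113330523), Ighg2b (chr12:113302965-113307933), Ighg2c (chr12:113285325-113288932) and Igha (chr12:113254830-113260236). Igkc (chr6:70726435-70726966, plus strand) encodes the kappa light chain, and Iglc1 (chr16:19061618-19062071) and Iglc2 (chr16:19198396-19200351), both on the minus strand, encode lambda light chains. Whether the counting used strand is not given in the sources used here.

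Most counts of these genes fell on Ighm, Igha and Igkc, which share no 31-base word with any other annotated gene. The opening bases of their coding sequence show what a read of each class looks like. They are given 5′ to 3′ on the coding strand at chr12:113422611-113422730, chr12:113260117-113260236 and chr6:70726435-70726554, and capitals mark bases that lie in a 31-base word found in no other annotated gene, here all of them.
Ighm: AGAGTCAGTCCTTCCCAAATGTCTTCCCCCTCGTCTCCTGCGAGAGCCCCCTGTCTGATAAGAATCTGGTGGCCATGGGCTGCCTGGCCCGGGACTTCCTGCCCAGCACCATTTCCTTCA
Igha: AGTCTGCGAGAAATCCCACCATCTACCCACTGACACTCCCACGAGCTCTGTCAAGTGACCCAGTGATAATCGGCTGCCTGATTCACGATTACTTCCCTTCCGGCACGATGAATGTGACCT
Igkc: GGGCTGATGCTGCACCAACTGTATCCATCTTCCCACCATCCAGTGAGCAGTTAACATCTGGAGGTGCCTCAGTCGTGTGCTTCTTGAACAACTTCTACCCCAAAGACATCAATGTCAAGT

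The IgG subclasses are the members that resemble each other most, and their hinge exons differ in length and in cysteine codons. The hinge exon joins the arms of IgG to its stem, and its cysteines bond the heavy chains together. The exons lie at chr12:113329844-113329882 (Ighg1), chr12:113307261-113307326 (Ighg2b), chr12:113288263-113288325 (Ighg2c) and chr12:113360529-113360576 (Ighg3), minus strand, and are 39, 66, 63 and 48 bases long. Capitals mark the in-frame cysteine codons, of which there are 4, 4, 3 and 1 in that order.
Ighg1: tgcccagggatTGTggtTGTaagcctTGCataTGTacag
Ighg2b: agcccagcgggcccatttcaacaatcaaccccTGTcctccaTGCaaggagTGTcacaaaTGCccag
Ighg2c: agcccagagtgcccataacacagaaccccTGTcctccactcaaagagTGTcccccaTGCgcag
Ighg3: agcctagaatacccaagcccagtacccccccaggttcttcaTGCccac

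Kallisto, the program that made the counts, assigns reads by such short words and divides a read between transcripts that both hold its words. The plot of shared words gives the percentage of the 31-base words of each gene that occur in another. Ighg2c held 14.4% of its words in common with Ighg2b, and Ighg2b 7.03% with Ighg2c. Iglc2 held 18.2% in common with Iglc3, a further lambda gene. A stretch of the exon after the hinge shows such an overlap, with lower case for bases that lie in no word of the gene's own (chr12:113306881-113306931 and chr12:113287884-113287931, minus strand). Over the bases printed for both genes the sequence is the same. Capitals there lie in words of the gene's own that run past those bases.
Ighg2b: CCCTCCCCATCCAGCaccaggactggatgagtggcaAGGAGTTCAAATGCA
Ighg2c: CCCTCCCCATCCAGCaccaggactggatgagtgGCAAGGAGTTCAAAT

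The division was visible in the estimated counts. Ighg2b and Ighg2c had whole-number counts (within 0.01) in 1 of 8 libraries, whereas their sum was whole in 8 of 8. In naive 1, for example, Ighg2b held 797 and Ighg2c 323 estimated counts, which add up to 1120.0. The reads they share were thus divided within the pair, and each gene's own value depends on that division. Iglc2 and Iglc3 were both whole in 4 of 8 libraries, and their sum was whole in 5 of 8. Their shared reads were thus not divided within this pair alone. The counts of Ighm, Ighd, Ighg1, Ighg3, Igha, Igkc and Iglc1 were whole in all 8.

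**Figure D1:**
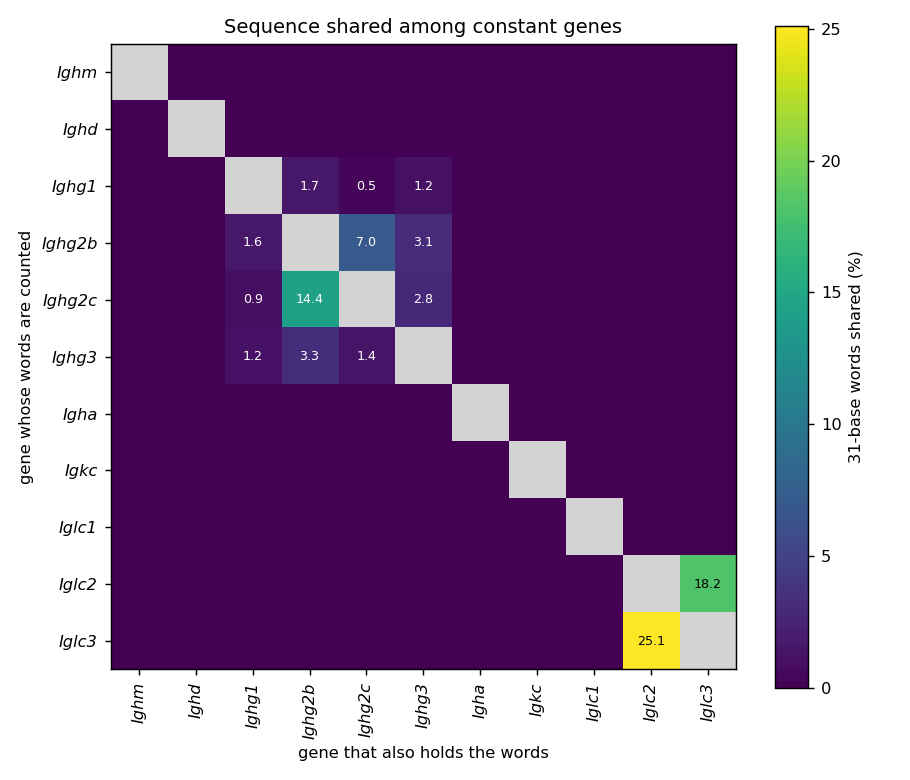
Share of the 31-base words of each constant gene (vertical axis) that also occur in another constant gene (horizontal axis), in percent by colour, with values above 0 printed. Among the genes drawn, words are shared only within the 4 IgG genes and between Iglc2 and Iglc3, with 14.4% for Ighg2c in Ighg2b.

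The libraries held 12479400 to 16548000 estimated counts each. A gene was called when its DESeq2 adjusted p was 0.05 or less and its change 1.5-fold or more. Of 8 chondrocyte genes 5 were called higher in DMM and 0 lower. Col2a1, the main collagen of cartilage, was at 15101 to 36986 normalised counts in naive and 40178 to 97826 in DMM libraries. Acan, Comp and Sox9 were at 805 or more in every library, whereas Matn3 and Col9a1 were as low as 18.5 and 98.5 and had log2 fold changes of -0.29 and -0.36 (DESeq2 adjusted p = 0.873 and 0.8287). The labels name chondrocytes as the cell type, but transcripts of other cells were present as well. The summed neutrophil lineage list (10 genes such as S100a8 and Mpo, none at 0) came to 127808 to 191860.0 normalised counts in naive libraries and 56217 to 115069 in DMM libraries, and DESeq2 called 10 of 10 of its genes lower in DMM. Of 9 erythroid genes 8 were called lower, of 8 osteoblast genes 7 higher, of 9 T cell genes 1 lower and of 8 macrophage genes 1 lower. Over all 17760 genes tested, 7.75% were called higher and 5.92% lower. The part of these other cells in the immunoglobulin values was not tested.

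The 10 constant genes together took 0.0621% ± 0.010 of all counts in naive mice and 0.125% ± 0.040 in DMM mice (SD, n = 4 each). The share ran from 0.0480 to 0.0722% over the naive and from 0.0896 to 0.177% over the DMM libraries, with no overlap. The 95% Wilson interval of the lowest DMM library ran from 0.0882% to 0.0911%, so that counting error was small beside the spread between mice. Such intervals cover counting error only.

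Normalised counts (estimated counts divided by DESeq2's size factor of each library) were higher in DMM on average for 9 of the 10 genes. Igha, Igkc and Iglc1 were called higher, 3 of 10 members, beside 13.7% of all 17760 genes tested (7.75% higher and 5.92% lower). The groups did not overlap for 2 of 10 members, Igha and Igkc, beside 22.2% of all genes tested. The median log2 fold change of the 10 was 0.55, and that of all genes tested -0.02. As the members were chosen with this contrast known, nothing is read from these counts. Per gene and library, the values ran as follows.

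**Figure D2:**
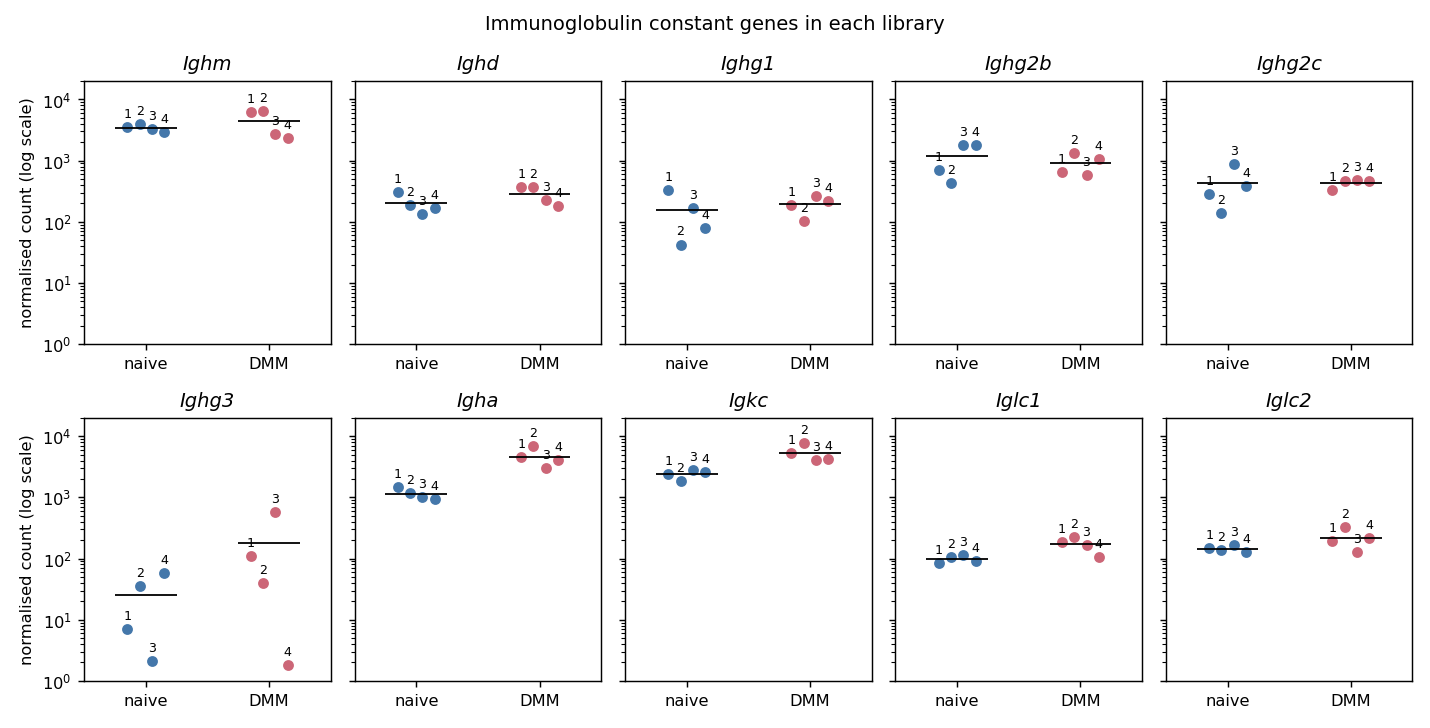
Normalised counts of the 10 constant genes (log scale) in each naive (blue) and DMM (red) library, numbered by replicate, with a bar at the group mean. Igha and Igkc sit higher in all 4 DMM libraries, Ighm is high in DMM 1 and 2 only, and Ighg3 scatters most.

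Ighm encodes the mu chain of IgM, the first class a B cell makes. It stood at 3505, 3991, 3321 and 2957 normalised counts in naive 1 to 4 and 6262, 6395, 2707 and 2366 in DMM 1 to 4. Naive libraries were close together, while DMM 1 and 2 lay above all naive libraries and DMM 3 and 4 below them. The group means were 3444 ± 430.2 and 4432 ± 2195 (SD, n = 4), a log2 fold change of 0.36 (SE 0.37). Its spread in DMM, 2.70-fold from the lowest to the highest library, compared with 1.35-fold in naive. Over all 11036 genes that averaged 100 or more normalised counts, the median of this ratio was 1.29 in naive and 1.30 in DMM libraries.

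Ighd encodes the delta chain of IgD, which mature naive B cells carry beside IgM on their surface. It stood at 305, 188, 136 and 170.1 normalised counts in naive 1 to 4 and 368, 376, 228 and 179 in DMM 1 to 4. DMM 1 and 2 were again the highest, but naive 1 lay above DMM 3 and 4, so the groups overlapped. The log2 fold change was 0.52 (SE 0.29). Without naive 1 it rose to 0.81 and met the rule for a call. Per kilobase of longest annotated transcript, Ighd lay between 0.0385 and 0.0818 times the level of Ighm in naive and between 0.0553 and 0.0792 times in DMM libraries, ranges that overlap.

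The IgG genes encode the gamma chains, gave log2 fold changes of both signs, and were not called. Ighg1 stood at 334, 42.6, 171 and 80.5 normalised counts in naive 1 to 4 and 185, 103.2, 264 and 218 in DMM 1 to 4. Its naive values spread 7.85-fold and enclosed all DMM values. The log2 fold change of 0.29 (SE 0.66) moved between -0.02 (without naive 2) and 0.97 (without naive 1).

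Ighg2b stood at 701, 434, 1818 and 1780.1 normalised counts in naive 1 to 4 and 649, 1322, 575 and 1056 in DMM 1 to 4. It was the one member with a lower mean in DMM, 901 ± 352 against 1183 ± 719.8 (SD, n = 4), with a log2 fold change of -0.39 (SE 0.55). Naive 3 and 4 were the highest of the 8 libraries and naive 2 the lowest, so the naive range enclosed the DMM range.

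Ighg2c, the gene that C57BL/6 mice carry in the place of Ighg2a, stood at 284, 141, 882 and 390.0 normalised counts in naive 1 to 4 and 330.1, 464, 481 and 471 in DMM 1 to 4. The DMM values spread 1.46-fold and lay inside the naive range, which spread 6.25-fold with naive 3 at its top. The log2 fold change was 0.04 (SE 0.54), and without naive 3 it was 0.68. For Ighg2b and Ighg2c the split between the genes is uncertain, as shown above.

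Ighg3 varied more than any other member. It stood at 7.04, 35.9, 2.14 and 57.8 normalised counts in naive 1 to 4 and 112, 39.8, 567 and 1.81 in DMM 1 to 4. Behind naive 3 and DMM 4 stood 2 estimated counts each, behind naive 1 there were 8, and behind DMM 3 there were 689. A single library thus held most of the Ighg3 signal, and the log2 fold change of 2.81 (SE 1.45) dropped to 0.999 without it.

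Igha encodes the alpha chain of IgA, the class made mostly by plasma cells of mucosal tissues and also by long-lived plasma cells of bone marrow. It stood at 1470.4, 1157, 1012 and 923 normalised counts in naive 1 to 4 and 4494, 6808, 3006 and 4046 in DMM 1 to 4. Every DMM library lay above every naive library. The means were 1141 ± 240.0 and 4588 ± 1606 (SD, n = 4), a ratio of 4.02. The log2 fold change of 2.01 (SE 0.23) stayed between 1.75 and 2.16 when each library was left out in turn.

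Igkc encodes the constant region of the kappa chain, the light chain of most mouse antibodies. It stood at 2372, 1833, 2762 and 2599 normalised counts in naive 1 to 4 and 5343, 7666, 4091 and 4306 in DMM 1 to 4. Again the groups did not overlap, with DMM 2 the highest. The means were 2392 ± 405 and 5351 ± 1637 (SD, n = 4), and the log2 fold change of 1.16 (SE 0.20) lay between 0.94 and 1.27 with each library left out.

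The lambda genes were lower in level and moved less. Iglc1 stood at 85.3, 106, 113 and 90.7 normalised counts in naive 1 to 4 and 183, 228, 164 and 107 in DMM 1 to 4. All DMM libraries but DMM 4 exceeded the naive ones, and the log2 fold change was 0.79 (SE 0.24). Without DMM 2 it was 0.62, and Iglc1 no longer met the rule for a call. Iglc2 stood at 147, 137, 168 and 129 normalised counts in naive 1 to 4 and 197, 326, 126 and 216 in DMM 1 to 4. DMM 3 was the lowest of all 8 libraries, and the log2 fold change of 0.57 (SE 0.26) met the rule for a call without DMM 3, at 0.76, and with libraries scaled by total count, at 0.72. Of the constant genes outside the set, Iglc3 changed by 0.63 on the log2 scale (SE 0.29, DESeq2 adjusted p = 0.108) and was called without DMM 4 and with total count scaling. Ighe, which encodes the heavy chain of IgE, lay between 0 and 5.28 normalised counts, and Iglc4 at most at 1.76.

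**Figure D3:**
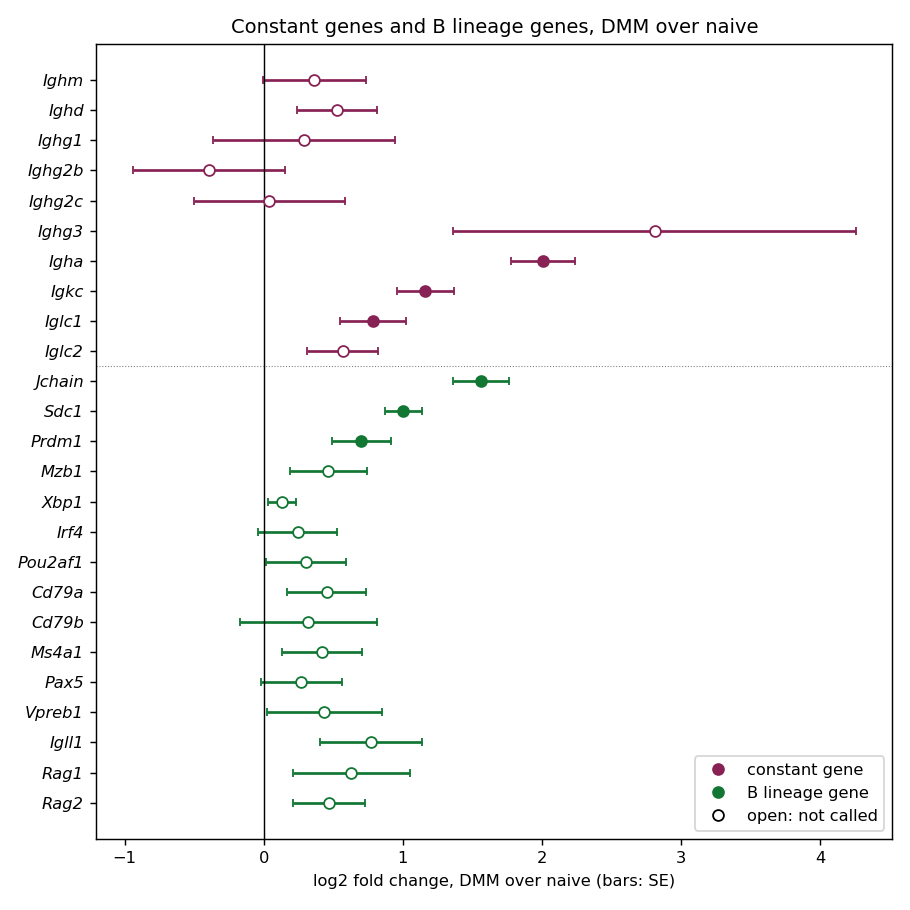
Log2 fold change (DMM over naive, bars for the SE) of the 10 constant genes (purple) and of B lineage genes outside the set (green), filled where the rule for a call was met. Igha at 2.01 and Jchain at 1.56 lie farthest right among the called genes, and Ighg3 has the widest bar.

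To compare levels between genes, normalised counts were divided by the length of the longest annotated transcript in kilobases. On this scale Igkc ranked first by its mean over the 8 libraries, with 3446 to 5192 per kilobase in naive and 7689 to 14409 in DMM libraries, and exceeded Ighm in 8 of 8 libraries. Ighm came next at 1742 to 2350.5 and 1393 to 3766, above Igha in 7 of 8 libraries, the exception being DMM 4. Igha lay at 363 to 579 per kilobase in naive and 1183 to 2680.3 in DMM libraries. It exceeded Ighg2b in 6 of 8 libraries. Ighg2b, Ighg2c, Iglc2 and Iglc1 followed and were not parted by their spread, each exceeding its neighbour in 4 or 5 of 8 libraries. Ighd, Ighg1 and Ighg3 closed the order, with Iglc1 above Ighd and Ighd above Ighg1 in 8 of 8 libraries and Ighg1 above Ighg3 in 7 of 8. With the shortest annotated transcript, which for a heavy chain gene is the secreted form, Ighm exceeded Igha in 5 of 8 libraries, Ighg2b exceeded Iglc2 in 8 of 8, and Ighd ranked above Iglc1 by its mean while exceeding it in 3 of 8.

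These levels give the make-up of the heavy chain mRNA. IgA took 16.7, 14.1, 10.1 and 11.1% in naive 1 to 4 and 28.1, 35.2, 30.6 and 40.1% in DMM 1 to 4. All DMM libraries lay above all naive libraries. IgM took 59.7, 72.8, 49.7 and 53.2% in naive 1 to 4 and 58.5, 49.5, 41.2 and 35.1% in DMM 1 to 4. Here the groups overlapped, since DMM 1 lay within the naive range and DMM 2, 3 and 4 below it. IgG, the sum of its 4 genes, took 18.6, 9.83, 38.2 and 32.8% in naive 1 to 4 and 10.2, 12.6, 24.9 and 22.4% in DMM 1 to 4. This share differed most between naive 2 and naive 3, within one group, and the groups overlapped. IgD took 1.91 to 4.89% in naive and 2.49 to 3.27% in DMM libraries.

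The switched classes, IgG and IgA together, came to 37.9% ± 10.7 in naive mice and 51.0% ± 10.4 in DMM mice (SD, n = 4), with overlapping ranges. Igha over Ighm, both per kilobase, was 0.280, 0.194, 0.204 and 0.209 in naive 1 to 4 and 0.480, 0.712, 0.742 and 1.143 in DMM 1 to 4. The lowest DMM ratio was above the highest naive ratio. With the longest transcript, DMM 4 was the only library in which Igha passed Ighm. The choice of transcript length sets the size of these shares but not the separation of the groups for IgA. With the shortest transcript, IgA took 15.6 to 25.4% in naive and 41.3 to 52.1% in DMM libraries, and the ratio to Ighm ran from 0.394 to 0.569 and from 0.974 to 2.32. On that scale Igha passed Ighm in DMM 2, 3 and 4, with ratios of 1.44, 1.51 and 2.32.

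**Figure D4:**
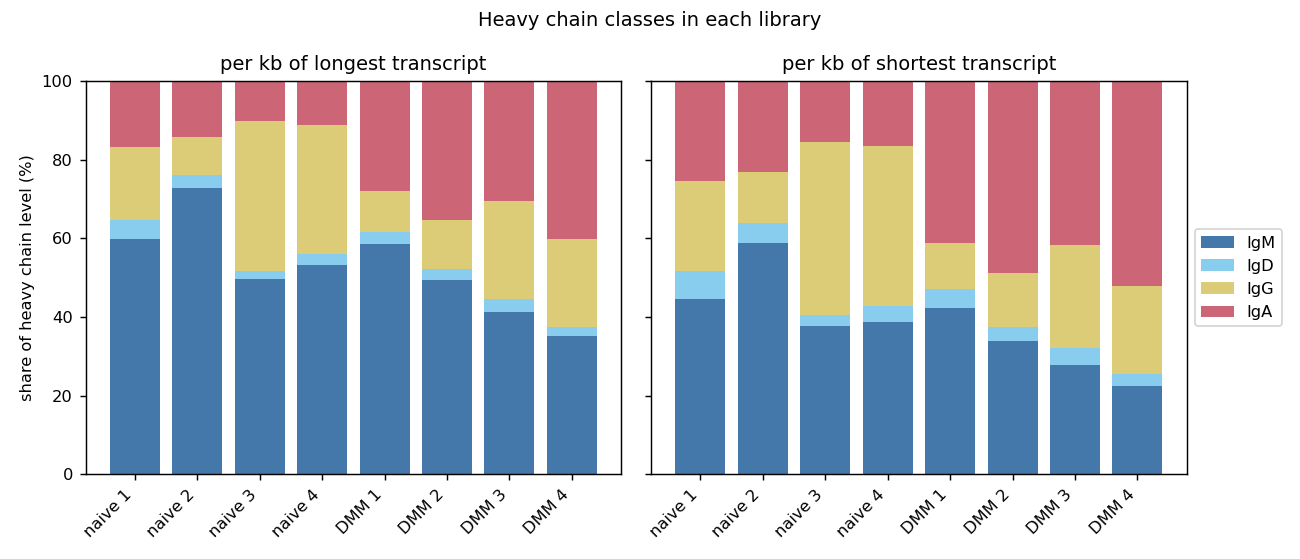
Share of IgM, IgD, IgG and IgA in the summed level of the 7 heavy chain genes (percent) in each library, with levels per kilobase of the longest (left) or shortest (right) annotated transcript. The IgA share is larger in each DMM library than in any naive library in both panels, while the IgG share varies most within the naive group.

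Within IgG, the 4 subclass genes were mixed differently from mouse to mouse. Ighg2b took 42.4 to 64.7% of the IgG level in naive and 23.3 to 53.9% in DMM libraries. Ighg2c took 30.0 to 48.3% and 40.0 to 43.7%. These shares depend on the length used, as the longest transcript has 1214 bases for Ighg2c and 2566 for Ighg2b. With the shortest transcript, Ighg2b took 52.3 to 76.9% in naive and 30.0 to 68.3% in DMM libraries. Ighg2c then took 16.9 to 30.7% and 24.1 to 26.9%. The shares of Ighg1 and Ighg3 below use the longest transcript. Ighg1 took 20.9% in naive 1 and 3.03 to 5.41% in the other naive libraries, against 4.35 to 11.5% in DMM. Ighg3 took 24.4% in DMM 3 and 0.0842% in DMM 4, the extremes of one group, and the naive libraries lay between 0.0589 and 4.69%.

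Kappa made up most of the light chain level in both groups. Its share of the kappa and lambda level was 91.2, 88.2, 90.8 and 92.2% in naive 1 to 4 and 93.2, 93.3, 93.1 and 93.2% in DMM 1 to 4. DMM libraries lay close together (93.2% ± 0.070, SD, n = 4) and above all naive libraries (90.6% ± 1.70). Lambda here was Iglc1 and Iglc2 without Iglc3, which ran from 78.5 to 244 normalised counts in DMM libraries. The closeness is that of the share without Iglc3. Light chain over heavy chain level ran from 1.21 to 1.62 in naive and from 1.71 to 2.19 in DMM libraries, or from 0.875 to 1.05 and from 1.099 to 1.27 with the shortest transcripts.

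The variable genes, which encode the part of the antibody that binds antigen, were counted apart from the constant genes. The summed normalised counts of the 113 Ighv genes were 0.169 to 0.203 times those of the 7 heavy chain constant genes over the 8 libraries, and those of the 100 Igkv genes 0.343 to 0.471 times that of Igkc. The most abundant heavy variable gene differed between mice, and no gene led in all 8. Ighv7-1 held 15.3% (95% Wilson interval 13.3 to 17.6%) of the Ighv counts in naive 4. Ighv7-1 led in naive 1 as well. Ighv1-80 led in DMM 1 with 14.0% (95% Wilson interval 12.8 to 15.3%), and Ighv1-81 in DMM 3, the library with most Ighg3, with 13.1% (95% Wilson interval 11.6 to 14.7%). Ighv1-81 also led in naive 3 and DMM 4, with 7.58% and 5.23%, where Ighg3 had 2 estimated counts each. In DMM 2, the library with most Igha and Igkc, the leading gene Ighv1-55 held 6.32% (95% Wilson interval 5.47 to 7.26%). It led in naive 2 as well. Variable genes share sequence with each other, so their counts are uncertain where Kallisto had to divide reads.

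Plasma cell genes outside the set were taken as a list of 14 chosen by role, of which 13 received an adjusted p. DESeq2 called 3 higher in DMM and 0 lower, beside 7.75% and 5.92% of all genes tested. The median log2 fold change of the tested genes was 0.46. Jchain, the joining chain that links IgA into dimers and IgM into pentamers, stood at 819.6, 548, 775 and 669 normalised counts in naive 1 to 4 and 1767, 2923, 1544 and 2065 in DMM 1 to 4. The groups did not overlap, and the log2 fold change was 1.56 (SE 0.20, DESeq2 adjusted p = 5.6e-12). Sdc1, the plasma cell surface marker syndecan-1, which other cell types also make, rose by 1.003 (SE 0.13, DESeq2 adjusted p = 2.42e-11). Prdm1, the regulator Blimp-1 that drives plasma cell differentiation, rose by 0.70 (SE 0.21, DESeq2 adjusted p = 0.00708), but without DMM 1 its change of 0.52 was no longer called.

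The other named plasma cell genes were not called. Mzb1, a chaperone of antibody assembly, stood at 0.46 on the log2 scale (DESeq2 adjusted p = 0.241), and Xbp1, which expands the secretory machinery, 0.13 (adjusted p = 0.407). Irf4 and Pou2af1, regulators of the B lineage, gave 0.24 and 0.30 (DESeq2 adjusted p = 0.612 and 0.513). Tnfrsf17, the survival receptor BCMA, was too low to receive an adjusted p, at 2.14 to 4.397 normalised counts in naive and 1.65 to 11.6 in DMM libraries.

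The ratio of Igha to Jchain normalised counts, drawn in the plot of both genes, was 1.79, 2.11, 1.31 and 1.38 in naive 1 to 4 and 2.54, 2.33, 1.95 and 1.96 in DMM 1 to 4, ranges that overlap because naive 2 exceeded DMM 3 and 4. Among the naive libraries naive 2 was lowest in Jchain but not in Igha.

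B cell receptor and mature B cell genes were, like Ighm, not called. Of 16 genes on this list DESeq2 called 0, beside 13.7% of all genes tested, and edgeR's quasi-likelihood test also called 0. An unadjusted DESeq2 p under 0.05 was found for 3 (2 higher and 1 lower). Over all genes 6162 had such a p, and 17760 received an adjusted p. The median log2 fold change of the 16 listed genes was 0.33. Cd79a, a signalling chain of the receptor, stood at 552, 719.7, 545 and 397 normalised counts in naive 1 to 4 and 746, 1291, 533 and 458 in DMM 1 to 4. DMM 1 and 2 were above all naive libraries and DMM 3 and 4 within their range, and the fold change was 0.45 on the log2 scale with an SE of 0.29 (DESeq2 adjusted p = 0.277). Its partner Cd79b gave 0.32 (DESeq2 adjusted p = 0.714), Ms4a1, which encodes CD20, gave 0.42 (0.329) and Pax5, the factor that holds B cell identity, gave 0.27 (0.572).

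Summed over Cd79a, Cd79b, Ms4a1 and Pax5, the B cell genes came to 2398, 2854, 2129.8 and 1496 normalised counts in naive 1 to 4 and 3018, 4753, 1898 and 1634 in DMM 1 to 4. Ighm was 1.46, 1.40, 1.56 and 1.98 times that sum in naive 1 to 4 and 2.08, 1.35, 1.43 and 1.45 times in DMM 1 to 4. The DMM libraries with the higher Ighm were those with the higher sum of B cell genes. DMM 1 and 2 were also the DMM libraries with the lower sums of the neutrophil list, and the part of that difference was not tested.

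**Figure D5:**
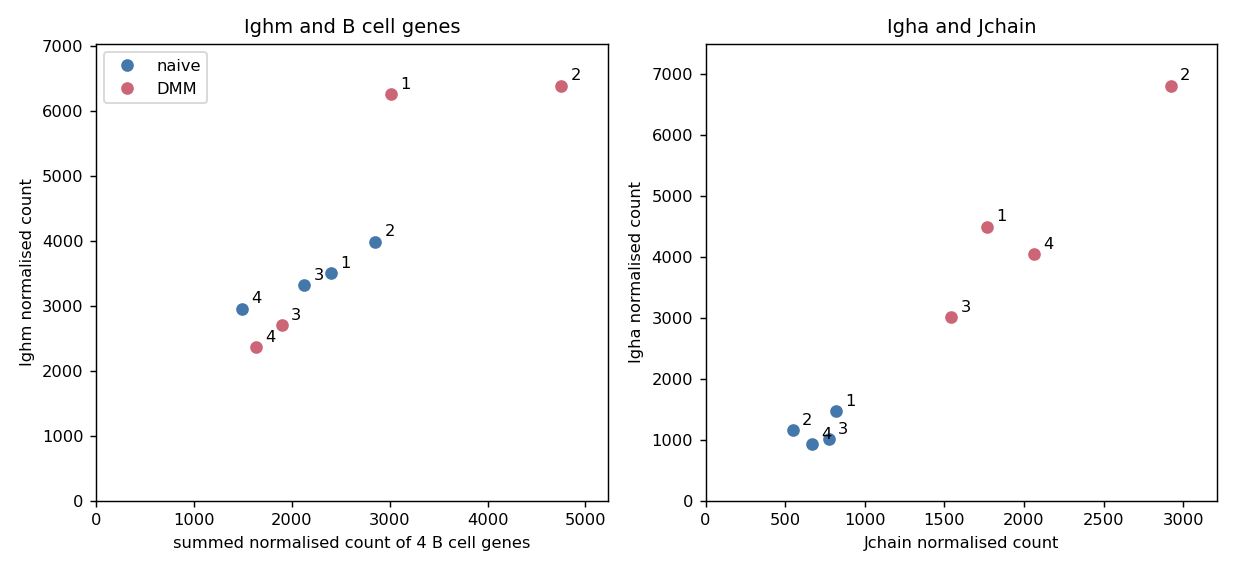
Left, Ighm against the summed normalised count of Cd79a, Cd79b, Ms4a1 and Pax5. Right, Igha against Jchain, both in normalised counts; each point is 1 library, blue for naive and red for DMM, numbered by replicate. On the left DMM 3 and 4 lie within the naive range of the B cell genes and below it for Ighm, and on the right all 4 DMM libraries lie apart from them.

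Early B cell genes, which mark precursors that still assemble their receptor, were expressed in all libraries, at a sum of 1235 to 2318 normalised counts in naive libraries and 1697 to 3321 in DMM libraries over 8 genes. DESeq2 called 0 of 8, beside 13.7% of all genes tested, and edgeR's quasi-likelihood test called 0. An unadjusted DESeq2 p under 0.05 was found for 1 of the 8. Over all genes 6162 had such a p, and 17760 received an adjusted p. Rag1 and Rag2, the recombinase that joins variable gene segments, gave log2 fold changes of 0.63 and 0.47 (DESeq2 adjusted p = 0.309 and 0.189). Vpreb1 and Igll1, which form the surrogate light chain, gave 0.43 and 0.77 (DESeq2 adjusted p = 0.513 and 0.117). With each library left out in turn, Rag1, Rag2 and Igll1 were each called in 1 of 8 fits.

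The class switching list of 10 genes had a median log2 fold change of -0.33, against -0.02 over all genes tested. Beside 5.92% of all genes tested called lower, 1 of the 10 was called, in the lower direction. This was Ung, the glycosylase that removes uracil from DNA and that dividing cells use in repair, at -0.68 on the log2 scale (DESeq2 adjusted p = 0.0242). Its call held in 4 of 8 fits with a library left out, being lost without naive 1, naive 2, DMM 1 or DMM 3.

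Receptors that bind the constant regions gave DESeq2 0 calls among 11 genes, of which 8 received an adjusted p. Over all genes tested 13.7% were called. Of the 11, edgeR's quasi-likelihood test also called 0, and 4 had an unadjusted DESeq2 p under 0.05 (2 higher and 2 lower). Over all genes 6162 had such a p, and 17760 received an adjusted p. Fcgrt, the neonatal receptor that recycles IgG, averaged 803 ± 79.5 normalised counts in naive mice and 1026 ± 84.2 in DMM mice (SD, n = 4), which is 0.36 on the log2 scale and under the 1.5-fold limit (DESeq2 adjusted p = 0.0136). Fcer1g, the signalling chain shared by activating Fc receptors, had -0.57 (DESeq2 adjusted p = 0.00063), also under that limit, and was called when naive 4 or DMM 4 was left out. Fcgr2b, the inhibitory IgG receptor, and Fcmr, the IgM receptor, had -0.19 and 0.68 (DESeq2 adjusted p = 0.279 and 0.114), and Fcmr was called when DMM 4 was left out. Pigr, which carries IgA across epithelia, was low at 3.22 to 13.9 normalised counts.

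Likeness to other genes was measured as Pearson's r of log2(normalised count + 1) over the 8 libraries, among 11001 genes outside the immunoglobulin loci that averaged 100 or more normalised counts. The points share the difference between groups, so r is given again with the group means removed. Among the closest to Ighm were Pik3c2b, H2-Q5, Syvn1 and Ctso, at r of 0.971 to 0.974 (0.971 to 0.979 with group means removed). Closest to the summed members were Tnfrsf19, Csad, Pxk, Itga10 and Epha2, at 0.975 to 0.982 (0.924 to 0.969), and closest to the summed switched genes were Arhgap12, Cd300ld3, Pcdhgb7, Plxna2 and 4930402H24Rik, at 0.973 to 0.981 (0.906 to 0.946). The genes were picked as those with the highest r among 11001, so that r is high by selection. The r with group means removed is that of the same picked genes and is no separate check. These values are a description over 8 libraries.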

How the data were processed

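RNA-seq of medial knee cartilage from 8 mice was analysed, 4 naive and 4 after DMM. The deposited table holds estimated counts per gene, which the authors made from Trimmomatic-trimmed reads with Kallisto, summed per gene by tximport. Length offsets were left out, and values were rounded for testing. The build used by the authors is uncertain, because the methods pair GRCm38 with a later Ensembl release and the labels list a human build. The library kit also differs between labels and methods. Coordinates, lengths and sequences were taken from the GENCODE vM21 annotation and transcripts of GRCm38, by gene identifier.

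Library totals were 12479400 to 16548000 estimated counts. DESeq2 version 1.42.0 in R version 4.3.3 was fitted over all genes without covariates, as the methods of the study name it (Wald test, unshrunken log2 fold changes). A call needed a change of 1.5-fold or more and an adjusted p (Benjamini-Hochberg, over all genes) of at most 0.05. Levels between genes are normalised counts per kilobase of the longest annotated transcript, and the shortest transcript was added as an alternative after seeing the data. Words of 31 bases were compared over all annotated transcripts. The fit was tested on simulated data with 200 genes changed 2-fold. DESeq2 called 172 of them and 22 unchanged genes, and edgeR 153 and 8.

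The members, the lists of companion genes and the tests were chosen with earlier results of these data known. Every member was named, with companion genes named by role, the 3 called genes of lowest adjusted p in each companion list, and the 5 genes most like the summed members, Ighm and the summed switched genes. Other alternatives were edgeR version 4.0.16 (quasi-likelihood test), TMM or total count scaling, other filters, no fold threshold, the replicate number as a block and leaving out each library. Some genes that this rule covers are not reported here.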

Additional observations from a re-analysis of the deposited data

Results flagged for a closer look

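In groups of 4 libraries, a value was picked out when it lay far from the other 3 relative to the range of its group (Dixon's test). Of 104 groups tested 5 were picked out, and chance alone gives about 1 in 20, here 5.2. Ighg2c stood at 330.1 normalised counts in DMM 1, below the other DMM libraries at 464 to 481. Ighg1 made up 20.9% of the IgG level in naive 1, above 3.03 to 5.41% in the other naive libraries. The ratio of Igha to Ighm per kilobase was 0.280 in naive 1, above 0.194 to 0.209 in the other naive libraries. Fcgrt was at 901 normalised counts in DMM 4, below 1056 to 1080.4 in the others. Iglc4 was at 0.8293 normalised counts in DMM 1, a single estimated count, and at 0 in the other DMM libraries.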

How the results depend on the processing

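Igha and Igkc met the rule for a call under every alternative run, and no called value changed sign. Under total count scaling the median log2 fold change of all genes tested was 0.14 in place of -0.02, Iglc2 was called as well (4 of 10 members), and of 2519 calls among all genes 2030 were higher and 489 lower, against 1377 and 1052. That scaling called 5 plasma cell genes, 1 mature B cell gene, 1 early B cell gene, 0 class switching genes and 1 receptor gene. With no fold threshold there were 4010 calls among all genes (2021 higher, 1989 lower), 5 plasma cell, 2 mature B cell, 4 class switching and 3 receptor genes. The replicate numbers did not pair the mice (correlations of their deviations 0.0498, 0.0580, -0.12 and 0.117 over 18403 genes). With a replicate block, 2081 of all genes, 3 members, 3 plasma cell genes and 0 class switching genes were called.

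Leaving out each library in turn gave 1858 to 2842 calls among all genes, 2 to 4 among members, 2 to 5 plasma cell, 0 to 0 mature B cell, 0 to 2 early B cell, 0 to 2 class switching and 0 to 3 receptor genes. The mean IgM share then ran from 54.2 to 61.9% in naive and 41.9 to 49.7% in DMM libraries, the switched share from 34.4 to 42.5% and 47.2 to 55.2%, the kappa share from 90.1 to 91.4% and 93.18 to 93.23%, and the constant share of counts from 0.0588 to 0.0668% and 0.108 to 0.137%. With the shortest transcript, the IgM share was 44.95% in naive and 31.6% in DMM, the switched share 50.2% and 64.5%, and the kappa share 89.2% and 92.2%. With Iglc3 added to lambda, the kappa share was 86.3% and 90.1%. Without the most abundant identifier in the total, the naive constant share of counts was 0.0730%. The DMM shares of counts given here keep that identifier in their total. Only the length, gene or total was changed for the values from the shortest transcript onward.

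With 4 mice a group, genes as variable as Ighg1 or Ighg3 had SEs of 0.66 and 1.45 on the log2 scale, so changes of that size could not be resolved. The division of reads limits Ighg2b, Ighg2c and Iglc2. With 2 estimated counts, Ighg3 in naive 3 and DMM 4 was near the limit of detection at this depth.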
